A study of Homo sapiens with 6 samples.

Results

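The microRNA biogenesis, Argonaute and LIN28B axis genes were taken as 10 named protein-coding genes: LIN28B, HMGA2, DICER1, DROSHA, DGCR8, XPO5, AGO1, AGO2, TARBP2 and TNRC6A. They were found by their symbols among the 19923 genes of the count tables, and all 10 were present and passed the filter on low counts. Poly(A) RNA was sequenced from Kelly, an established human neuroblastoma cell line that the labels give as MYCN-amplified and wild type in genotype. One group of 3 libraries (siControl) received a control siRNA by lipid transfection, and the other group of 3 (siMETTL3) an siRNA directed at METTL3, both for 72 hours. METTL3 is the methyltransferase that places N6-methyladenosine (m6A) on RNA. All 6 libraries are of 1 cell line, the file headers call the siMETTL3 libraries siMettl3B and use the word input for the alignments of both groups alike, and no label says whether the replicates were separate cultures, so p-values measure the spread between these libraries, which may be technical.

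A microRNA is cut from a long primary transcript in the nucleus by the Microprocessor, made of the nuclease DROSHA and its RNA-binding partner DGCR8. The hairpin that results is exported by exportin 5 (XPO5) and cut again by DICER1 with its partner TARBP2. The mature strand is loaded into an Argonaute protein (AGO), which binds target mRNAs and recruits a GW182 protein such as TNRC6A to silence them. LIN28B, an RNA-binding protein of embryonic cells and of many neuroblastomas, blocks the maturation of the let-7 microRNAs, which silence HMGA2, LIN28B itself and other growth genes. METTL3 is also known to mark primary microRNAs. The tables hold protein-coding genes, so no mature or primary microRNA was measured, and no m6A level was measured either.

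The sequences below show what LIN28B and let-7 act on. All 9 mature let-7 family members in RefSeq (GRCh38.p14) share the same seed, bases 2 to 8, shown here in capitals for let-7a, let-7g and miR-98:
hsa-let-7a-5p: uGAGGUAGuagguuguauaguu
hsa-let-7g-5p: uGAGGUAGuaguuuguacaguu
hsa-miR-98-5p: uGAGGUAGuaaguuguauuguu

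LIN28 proteins hold let-7 precursors by the loop, where the letters GGAG are a known contact. GGAG was present between the arms in 9 of the 12 let-7 family hairpins and not in the other 3. The hairpin of let-7g (chr3:52268278-52268361, minus strand) has it, in capitals, and that of let-7a-3 (chr22:46112749-46112822, plus strand) does not:
MIRLET7G: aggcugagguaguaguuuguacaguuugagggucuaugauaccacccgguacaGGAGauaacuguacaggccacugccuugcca
MIRLET7A3: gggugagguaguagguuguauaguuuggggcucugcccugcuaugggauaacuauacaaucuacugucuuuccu

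The seed pairs with CTACCTC in an mRNA. LIN28B and HMGA2 stood out among the 10 genes in these letters, each with 4 matches in the 3′ UTR of its canonical transcript (GENCODE release 44). The first match of each and the third of LIN28B are shown with the letters that pair with the seed in capitals. The LIN28B sites lie at chr6:105078812-105078834 and chr6:105081421-105081443 and the HMGA2 site at chr12:65963298-65963320, all on the plus strand of GRCh38:
LIN28B site 1: acccggttgcaaagtCTACCTCa
LIN28B site 3: gtttacagcaaaaggCTACCTCa
HMGA2 site 1: gccaacgttcgatttCTACCTCa

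Of 1481 tested genes with a 3′ UTR at least as long as that of LIN28B (4549 bases), 0.203% had at least 4 matches in the first 4549 bases. For HMGA2 (2999 bases) the share was 0.0318% of 3148, which is HMGA2 alone. Each gene is counted in its own share. AGO2 held 2 matches, and AGO1 and TARBP2 held 1 each. The 3′ UTRs of DICER1, DROSHA, DGCR8, XPO5 and TNRC6A held 0. For AGO1, whose 3′ UTR has 10925 bases, 50.8% of the 128 UTRs at least as long held a match in that length. A match is a run of letters and not a measured site.

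The depth was 15430000 to 21565013 counts per library, with siControl replicate 3 the shallowest. The targeted gene, METTL3 (chromosome 14, 21498133 to 21511342), was lower in each siMETTL3 library, with 61.0% of the control level left (edgeR FDR 4.68e-06). TOX4 overlaps 7.9% of the METTL3 span, and how many METTL3 counts are reads of TOX4 was not tested. Markers of the labelled cell type were present: all 10 sympathoadrenal markers were detected in each library, with a summed level of 6487 to 6967 CPM in siControl and of 9169 to 9728 CPM in siMETTL3. MYCN makes up most of the difference in that sum, and the markers did not move together: 6 rose, among them TH to 286% of its control level, ISL1 fell to 44.02%, and PHOX2A and CHRNA3 were among those not past the threshold. The 10 markers of haematopoietic, epithelial, endothelial, fibroblast and Schwann cells that were in the tables summed to 9.03 to 11.5 CPM in siControl and to 10.4 to 12.7 CPM in siMETTL3. KRT5 was at 0 in all libraries, and PTPRC, CD3E, CDH5, DCN and LUM were each at 0.400 CPM or less. Among the 15311 genes tested, 37.8% had an FDR under 0.05, with 18.6% higher and 19.2% lower in siMETTL3. CPM is the count scaled to the TMM-adjusted library size, and FDR is the Benjamini-Hochberg adjusted p of edgeR's quasi-likelihood test over all tested genes.

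Depletion of METTL3 was accompanied by small changes in 4 of the 10 genes, in different directions at different steps. The GW182 protein gene TNRC6A and the Argonaute gene AGO2 rose by 27.3% and 24.3%. The export factor gene XPO5 fell by 15.9% and the nuclease gene DROSHA fell by 10.6%. LIN28B, the most abundant of the 10 per transcript length, was at 97.7% of its control level and not past the threshold. DGCR8, DICER1, TARBP2, AGO1 and HMGA2 were not past it either. The 4 of 10 compare with 37.8% of all tested genes, so the share of called genes was close to the background. The 4 absolute log2 fold changes lay between 0.16 and 0.35, below the median of 0.39 over all called genes. In bulk RNA, a lower level in each cell and fewer cells with the transcript cannot be told apart.

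**Figure D1:**
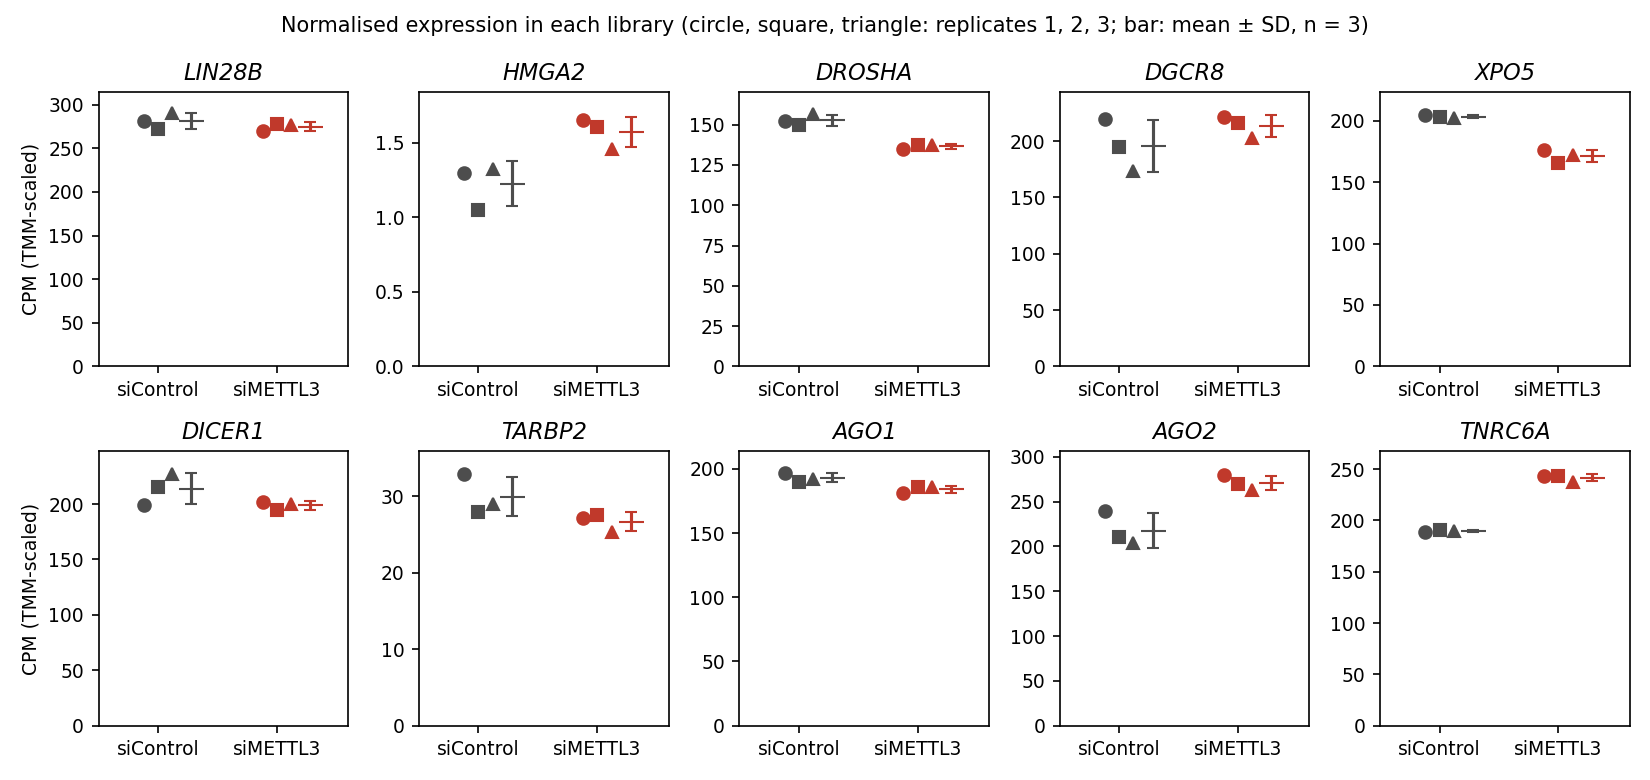
CPM of each of the 10 genes (vertical axis, TMM-scaled, from 0) in the siControl and siMETTL3 libraries; each point is 1 library and the bars give the mean ± SD (n = 3). The siMETTL3 points of AGO2 and TNRC6A lie above all siControl points and those of XPO5 and DROSHA below them, while those of LIN28B lie among them.

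LIN28B (chromosome 6, 104936616 to 105083332, plus strand) had 6080, 5445 and 4370 raw counts in siControl and 5548, 6062 and 5688 in siMETTL3. After scaling, its level was 282, 273 and 290.03 CPM in siControl and 269.6, 278 and 277 CPM in siMETTL3. The groups overlapped, since siControl replicate 2 lay below siMETTL3 replicates 2 and 3. The difference on the log2 scale was -0.03 (SE 0.054, edgeR FDR 0.666), with a 95% interval of -0.15 to 0.082. The interval does not reach a change of the size seen in METTL3 (-0.71) or in AGO2. The span of LIN28B overlaps no other gene of the tables.

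HMGA2 (chromosome 12, 65824131 to 65966295, plus strand), a chromatin protein gene that is a well-known let-7 target, was expressed at a very low level. It had 28, 21 and 20 counts in siControl and 34, 35 and 30 in siMETTL3. The CPM values were 1.30, 1.05 and 1.33 against 1.65, 1.61 and 1.46. All siMETTL3 values lay above all siControl values, but the test did not call the difference (log2 fold change 0.36, SE 0.29, 95% interval -0.25 to 0.98, edgeR FDR 0.348). Per kilobase of transcript, LIN28B stood at 51.7 CPM and HMGA2 at 0.298 CPM in siControl.

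DROSHA, the Microprocessor nuclease (chromosome 5, 31400497 to 31532196, minus strand), measured 152, 149.6 and 157 CPM in siControl and 135, 137 and 138 CPM in siMETTL3. The groups did not overlap, and the means were 153 ± 3.53 and 137 ± 1.71 CPM (SD, n = 3), a log2 fold change of -0.16 (SE 0.053, edgeR FDR 0.0275). The call was lost without siControl replicate 2 (FDR 0.0596), without siMETTL3 replicate 1 (0.117), 2 (0.0709) or 3 (0.0727), and with scaling by total counts (0.0511), so it is the least firm of the 4.

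DGCR8, the RNA-binding partner of DROSHA (chromosome 22, 20080232 to 20111877, plus strand), measured 219, 195 and 173 CPM in siControl and 221, 216 and 203 CPM in siMETTL3. The siControl libraries spread widely, at 196 ± 22.9 CPM against 213 ± 9.69 CPM (SD, n = 3), and the groups overlapped through siControl replicate 1. This gave a log2 fold change of 0.12 (SE 0.077, edgeR FDR 0.235), with a 95% interval of -0.044 to 0.29. It moved with the siControl libraries: without replicate 1 it was 0.21 and past the threshold (FDR 0.0131), and without replicate 3 it was 0.041 (FDR 0.597). With the GC content and transcript length offset it was 0.039 (FDR 0.599). The DGCR8 mRNA is itself known to be cut by the Microprocessor, at hairpins in its own exons. RefSeq places miR-3618 (chr22:20085797-20085818) and miR-1306-3p (chr22:20086112-20086129) inside an exon of the canonical DGCR8 transcript, with the seeds here in capitals:
hsa-miR-3618: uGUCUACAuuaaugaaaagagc
hsa-miR-1306-3p: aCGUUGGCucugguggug

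The ratio of DGCR8 to DROSHA within a library needs no scaling between libraries. It was 1.44, 1.30 and 1.11 in siControl and 1.64, 1.57 and 1.47 in siMETTL3. Each siMETTL3 value exceeded each siControl value, at 1.28 ± 0.168 against 1.56 ± 0.0869 (SD, n = 3; two-sided exact permutation p 0.1, the smallest that 3 against 3 allows). This ratio and the 2 given further on were chosen after the values had been seen.

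XPO5, the exporter of precursor hairpins (chromosome 6, 43522334 to 43576038, minus strand), measured 205, 203 and 202 CPM in siControl and 176, 166 and 172 CPM in siMETTL3. The groups were well apart, at 203 ± 1.33 and 171 ± 5.002 CPM (SD, n = 3). XPO5 fell by 0.25 on the log2 scale (SE 0.053, edgeR FDR 0.00225), and the change was past the threshold in all 19 other settings, between -0.31 and -0.23. One of these, a fit to genes without overlaps, kept XPO5 in by name and so does not bear on its overlap. The span of XPO5 overlaps that of POLR1C, an RNA polymerase subunit gene on the other strand, over 74.6% of its length, and the counting set no strand option. None of the 1275 exonic bases of the canonical POLR1C transcript lies in the XPO5 span (0 bases), whereas 4238 of the 5323 exonic bases of XPO5 lie in the POLR1C span. POLR1C had 215 ± 2.60 and 195 ± 5.94 CPM (log2 fold change -0.14, edgeR FDR 0.0461), and how many of its counts are reads of XPO5 was not tested. The counts cover introns too, so reads from POLR1C introns or from its other transcripts can also count for XPO5. How many XPO5 counts are such reads was not tested either.

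DICER1, the nuclease that releases the mature duplex (chromosome 14, 95086228 to 95158010, minus strand), measured 199.5, 215 and 227 CPM in siControl and 202, 195 and 199.98 CPM in siMETTL3. The groups overlapped through siControl replicate 1. On the log2 scale the difference was -0.11 (SE 0.059, edgeR FDR 0.184, 95% interval -0.23 to 0.023). It passed the threshold without siControl replicate 1 (-0.15, FDR 0.0396) and with an offset for gene span length (-0.16, FDR 0.0360), and was -0.061 (FDR 0.369) without siControl replicate 3.

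TARBP2, the double-stranded RNA-binding partner of DICER1 (chromosome 12, 53500921 to 53506431, plus strand), was the lowest of the 10 after HMGA2 in CPM. It measured 32.8, 27.98 and 28.9 CPM in siControl and 27.2, 27.5 and 25.3 CPM in siMETTL3. Each siMETTL3 value lay below each siControl value, but siControl replicate 2 was close to the highest siMETTL3 library. Its log2 fold change was -0.17 (SE 0.087, edgeR FDR 0.148, 95% interval -0.36 to 0.020). It ran from -0.22 to -0.093 with 1 library left out, and was -0.037 with an offset for gene span length.

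AGO2, the human Argonaute best known for slicing perfectly paired targets (chromosome 8, 140520156 to 140635633, minus strand), measured 239.9, 210.1 and 203 CPM in siControl. In siMETTL3 it measured 279.6, 270.03 and 263 CPM, and the groups did not overlap. The means were 218 ± 19.4 and 271 ± 8.33 CPM (SD, n = 3), with a log2 fold change of 0.31 (SE 0.066, edgeR FDR 0.00209). The rise was past the threshold in all 19 other settings, between 0.23 and 0.39.

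AGO1 (chromosome 1, 35869808 to 35930532, plus strand), a paralog of AGO2, measured 197, 190.1 and 192 CPM in siControl and 181, 186 and 186 CPM in siMETTL3. The siMETTL3 values were all lower, by a small margin (log2 fold change -0.07, SE 0.052, edgeR FDR 0.323, 95% interval -0.18 to 0.043). With transcript length and GC content as an offset AGO1 passed the threshold (-0.15, FDR 0.0143). The ratio of AGO2 to AGO1 within a library was 1.22, 1.10 and 1.06 in siControl and 1.54, 1.46 and 1.42 in siMETTL3 (two-sided exact permutation p 0.1, the smallest possible). The siMETTL3 values were all higher for AGO2 and all lower for AGO1, so the ratios had to separate. That p therefore adds nothing to the values of the 2 genes. AGO3 and AGO4 were expressed at 88.8 ± 4.36 and 30.6 ± 3.15 CPM in siControl. Their log2 fold changes were -0.026 (edgeR FDR 0.775) and 0.032 (edgeR FDR 0.820), with intervals of -0.16 to 0.10 and -0.17 to 0.23.

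TNRC6A (chromosome 16, 24610209 to 24827632, plus strand), a GW182 protein gene that links AGO to the deadenylases, measured 189, 191 and 189.7 CPM in siControl. It measured 244, 243 and 238 CPM in siMETTL3, so that the gap between the groups was far wider than the spread within either. TNRC6A rose by 0.35 on the log2 scale (SE 0.052, edgeR FDR 0.000157), with the smallest FDR of the 10 genes, and the change stayed between 0.29 and 0.37 and past the threshold in all 19 other settings. A larger absolute change was seen in 29.4% of all tested genes.

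Of the other GW182 genes, TNRC6C was past the threshold and TNRC6B was not; the difference between them was not tested. TNRC6B, the most abundant of the family in CPM, was at 306 ± 18.1 CPM in siControl and 289.9 ± 7.38 CPM in siMETTL3 (log2 fold change -0.079, edgeR FDR 0.319). TNRC6C rose from 87.8 ± 9.04 CPM in siControl to 103 ± 2.15 CPM (log2 fold change 0.22, edgeR FDR 0.0257). That call was lost in 7 of 19 other settings, among them without siControl replicate 2 (FDR 0.0622) and without siMETTL3 replicate 1 (0.101), 2 (0.0618) or 3 (0.0817). The fold change itself shrank to 0.10 (FDR 0.165) with the GC content and transcript length offset, to 0.11 with the block added, and to 0.15 (FDR 0.126) with the span length offset. The ratio of TNRC6A to TNRC6B was 0.578, 0.636 and 0.650 in siControl and 0.826, 0.864 and 0.810 in siMETTL3 (two-sided exact permutation p 0.1, the smallest possible).

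**Figure D2:**
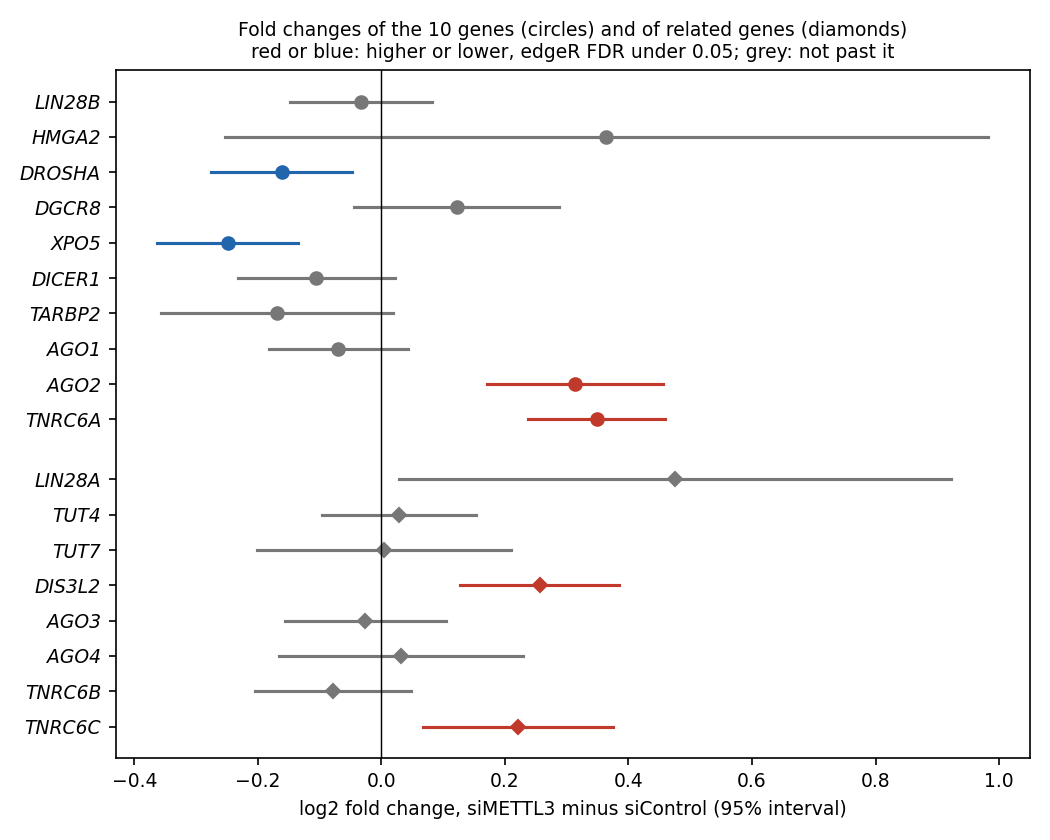
Log2 fold changes (horizontal axis, siMETTL3 minus siControl) with 95% intervals for the 10 genes (circles) and 8 related genes (diamonds), 3 libraries a group. TNRC6A, AGO2, DIS3L2 and TNRC6C lie right of 0 and XPO5 and DROSHA left of it with an FDR under 0.05, and the interval of HMGA2 is the widest.

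In 7 of the 10 genes the 3 values of a group lay entirely on one side of the 3 values of the other, against 49.9% of all tested genes. Among them, HMGA2, AGO1 and TARBP2 were not past the threshold. LIN28B, DICER1 and DGCR8 were the 3 whose groups overlapped. Within siControl, AGO2 and DGCR8 were both highest in replicate 1 and lowest in replicate 3, the shallowest library, while DICER1 had the reverse order. Whether depth or another property of those libraries plays a part was not tested. The AGO2 groups did not overlap despite this spread.

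Levels between genes were compared as CPM per kilobase of the canonical transcript. In siControl the order was LIN28B (51.7 ± 1.61), DGCR8 (43.5 ± 5.08), XPO5 (38.2 ± 0.249), DROSHA (28.2 ± 0.651), TNRC6A (22.3 ± 0.120), DICER1 (20.6 ± 1.33), TARBP2 (19.8 ± 1.70), AGO2 (14.9 ± 1.33), AGO1 (14.1 ± 0.260) and HMGA2 (0.298 ± 0.0369), each as mean ± SD of 3 libraries. DGCR8 and XPO5, DICER1 and TARBP2, and AGO2 and AGO1 were neighbours whose libraries overlapped. In siMETTL3, TNRC6A stood above DROSHA (28.4 against 25.2) with no overlap. There AGO2 had a mean of 18.6 and TARBP2 of 17.6, but the AGO2 libraries overlapped those of both TARBP2 and DICER1, so their order is not resolved. The canonical transcripts of AGO1 and AGO2 are long (13712 and 14595 bases, mostly 3′ UTR), and the counts cover introns too, so this scale depends on which transcripts the cells use. Per kilobase of gene span in siControl, DGCR8 stood highest (6.19 CPM) and LIN28B lower (1.92 CPM).

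GGACT, letters that METTL3 is known to favour, occurred 4 times in the canonical transcript of TNRC6A, 8 times in AGO2, 5 times in XPO5 and 1 time in DROSHA. AGO1, which was not called, held 15. Among transcripts at least as long, 90.0% held at least 4 in the length of TNRC6A, 87.6% at least 8 in that of AGO2, 53.8% at least 5 in that of XPO5 and 98.9% at least 1 in that of DROSHA. For AGO1 the share with at least 15 was 26.3%. Each share counts the gene's own transcript. These letters alone do not say where m6A lies.

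The other genes of the pathway were read from 5 lists of small-RNA machinery. Of 49 genes, 47 were tested, and 5 were higher, 17 were lower and 25 were not past the threshold. The 46.8% called compare with 37.8% of all tested genes, and the median log2 fold change was -0.052 against -0.0021 for all.

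Of 15 genes for proteins that bind primary microRNAs or the Microprocessor, 8 fell, 1 rose and 6 were not past the threshold. Their median log2 fold change was -0.15. The 60% called compare with 37.8% of all tested genes, and 19.2% of all tested genes were lower. NCBP1 and ILF2, which are among the 8, lay just inside the threshold (edgeR FDR 0.0493 and 0.0498). The helicase genes DDX5 and DDX17, cofactors of DROSHA, fell by 0.38 and 0.28 on the log2 scale (edgeR FDR 0.000551 and 0.00134). DDX5 was at 456 to 534 CPM in siControl and at 364 to 400.4 CPM in siMETTL3, and CEP95 overlaps 13.4% of its span. HNRNPA1, which helps to open some hairpins, fell by 0.35 (FDR 0.000977). ADARB1, an adenosine deaminase that edits double-stranded RNA, rose from 51.7 ± 7.23 CPM in siControl to 87.6 ± 3.12 CPM (log2 fold change 0.76, edgeR FDR 2.54e-05).

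At export and dicing, 3 of 4 partners fell and the remaining gene, the exportin gene XPO1, was not past the threshold. That is 75% called in a list of only 4 genes, against 37.8% of all tested genes. RAN, the GTPase that XPO5 needs to carry its cargo, measured 420.1, 459.7 and 452 CPM in siControl and 329, 318 and 354 CPM in siMETTL3. The groups did not overlap, and the log2 fold change was -0.41 (SE 0.061, edgeR FDR 0.000152). PRKRA, which binds DICER1 as TARBP2 does, was at 78.9 ± 4.01 CPM in siControl and fell by 0.37 on the log2 scale (edgeR FDR 0.000695). IPO8, an import factor that binds AGO proteins, fell by 0.22 (edgeR FDR 0.0145), a call lost without siMETTL3 replicate 1 (FDR 0.0681).

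Among 14 genes of AGO loading and the silencing complex, TNRC6C rose, 3 fell and 10 were not past the threshold (median -0.035). The share called was 28.6%, against 37.8% of all tested genes. HSP90AA1 and PTGES3, a chaperone and its co-chaperone in AGO loading, fell by 0.35 each (edgeR FDR 0.000333 and 0.000727). AJUBA, a LIM-domain protein gene, went from 7.07 ± 1.09 CPM in siControl to 2.83 ± 0.440 CPM in siMETTL3 (log2 fold change -1.32, edgeR FDR 0.000118), but AL132780.3 overlaps 97.4% of its span, so its reads cannot be told from those of that gene. Of the 4 PIWI genes, which serve germline small RNAs, PIWIL2 and PIWIL4 passed the filter, and their edgeR FDR values were 0.509 and 0.126.

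Genes listed for the tailing and turnover of small RNAs and their precursors were split, with 3 of 12 higher, 3 lower and 6 not past the threshold. Not all encode enzymes that tail or degrade RNA: the list also holds LIN28A, TRIM71, which is among the 3 higher, and ZSWIM8, which is among the 3 lower. So 50% were called, against 37.8% of all tested genes. LIN28 proteins can recruit TUT4 or TUT7 to add uridines to let-7 precursors, which DIS3L2 then degrades. TUT4 was at 180.4 ± 10.8 CPM in siControl and 184 ± 1.70 CPM in siMETTL3 (log2 fold change 0.029, edgeR FDR 0.736), with 8.65% of its span shared with PRPF38A. TUT7 was at 17.7 ± 0.840 and 17.7 ± 0.923 CPM (edgeR FDR 0.977). DIS3L2 measured 113, 109 and 100.3 CPM in siControl and 132, 127 and 127 CPM in siMETTL3, a rise of 0.26 on the log2 scale (SE 0.060, edgeR FDR 0.00424). ZSWIM8, a ubiquitin ligase adaptor in target-directed microRNA decay, fell by 0.37 (edgeR FDR 0.000976), and AC022400.7 overlaps 32.6% of its span. XRN1, an exonuclease, fell by 0.26 (edgeR FDR 0.00523).

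LIN28A, the paralog of LIN28B, was near the floor at 3.25, 3.40 and 3.05 CPM in siControl and 3.30, 5.05 and 5.16 CPM in siMETTL3. Its groups overlapped through siMETTL3 replicate 1 (log2 fold change 0.48, edgeR FDR 0.0887). Without that library LIN28A passed the threshold (log2 fold change 0.65, FDR 0.0293).

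**Figure D3:**
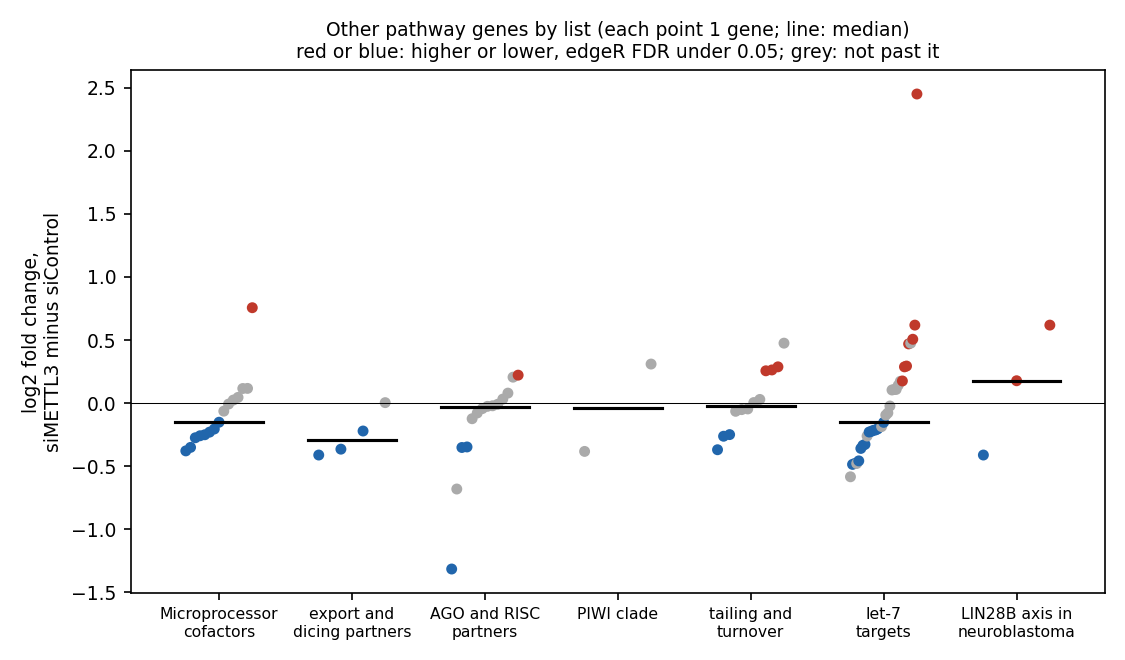
Log2 fold changes (vertical axis, siMETTL3 minus siControl) of the tested genes of 7 pathway lists, 1 point a gene, with the median of each list as a line; some genes are in 2 lists. The medians run from -0.29 for export and dicing partners to 0.18 for the 3 LIN28B axis genes, and AJUBA (-1.32) is the lowest point.

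Known targets of let-7 did not move as a block. Of 38 listed genes, 33 were tested, and 7 were higher, 13 were lower and 13 were not past the threshold. Their median log2 fold change was -0.15. The share called was 60.6%, against 37.8% of all tested genes. Of the 27 whose 3′ UTR held CTACCTC, 5 were higher and 12 lower. Over all 1562 tested genes with such a match, 332 were higher and 294 lower, and the median was 0.0032 on the log2 scale. The share called was 63.0% of the 27 and 40.1% of the 1562, against 37.9% of the 13001 tested genes without a match. The median 3′ UTR was 3095.5 bases long with a match and 1141 without, and no correction was made for that length.

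Among the listed let-7 targets, MYCN and CCND1 rose and CDC25A fell. Neither MYCN nor CCND1 holds the seed match in the 3′ UTR of its canonical transcript (0 matches each). CCND1, the cyclin D1 gene, rose from 136 ± 3.48 CPM in siControl to 194 ± 6.42 CPM (log2 fold change 0.51, edgeR FDR 1.16e-05), with 10.5% of its span shared with LTO1. CDC25A, a cell cycle phosphatase gene, fell from 104.5 ± 5.65 CPM in siControl to 74.9 ± 0.424 CPM (log2 fold change -0.48, edgeR FDR 3.80e-05). TRIM71, a stem-cell let-7 target with 6 matches in its 3′ UTR, rose from 122 ± 4.47 CPM in siControl to 149 ± 4.79 CPM, or by 0.29 on the log2 scale (edgeR FDR 0.00127).

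The oncofetal let-7 targets most often read beside LIN28B were mixed. HMGA1, the paralog of HMGA2, fell from 313 ± 11.1 CPM in siControl to 267 ± 3.46 CPM, which is -0.23 on the log2 scale (edgeR FDR 0.00432), and lay just outside the threshold with an offset for gene span length (FDR 0.0532). IGF2BP1, an mRNA-stabilising m6A reader gene, rose from 485 ± 30.6 CPM in siControl to 548 ± 10.1 CPM (log2 fold change 0.18, edgeR FDR 0.0318). That call was lost in 7 of 19 other settings, among them without siControl replicate 2 (FDR 0.108) and without siMETTL3 replicate 1 (0.0838), 2 (0.127) or 3 (0.106). It shrank to 0.086 (FDR 0.167) with the GC content and transcript length offset and to 0.087 (FDR 0.192) with the block added. IGF2BP3 was at 339 ± 8.66 and 374 ± 6.44 CPM (log2 fold change 0.14), at an edgeR FDR of 0.0502, and passed the threshold in 10 of 18 other settings. IGF2BP2 was at 0.963 ± 0.0864 and 0.637 ± 0.173 CPM (edgeR FDR 0.246).

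In neuroblastoma LIN28B has been tied to MYCN, by way of let-7, and to RAN and the mitotic kinase gene AURKA. All 3 were past the threshold here, as were 37.8% of all tested genes, and they went in different directions. MYCN rose by 0.62 on the log2 scale (edgeR FDR 5.17e-06) and RAN fell, as given above. AURKA measured 63.6, 64.2 and 63.3 CPM in siControl and 76.6, 70.2 and 69.3 CPM in siMETTL3 (log2 fold change 0.18, edgeR FDR 0.0386). The AURKA call was lost in 8 of 19 other settings, among them without siControl replicate 1 (FDR 0.0507) or 2 (0.0971) and without siMETTL3 replicate 1 (0.198), 2 (0.0695) or 3 (0.0533).

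Among 11763 genes whose log2 CPM averaged 3 or more, those whose log2 CPM followed that of LIN28B most closely over the 6 libraries were CTNND1 (Pearson r 0.994), MED4 (0.984) and SOX6 (0.983). Their own differences between the groups had edgeR FDR values of 0.551, 0.497 and 0.284. The 6 points share library depth and scaling. These genes were picked as the highest of 11763 correlations over 6 points. Values this high can arise in that way without any relation to LIN28B, and none was tested.

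**Figure D4:**
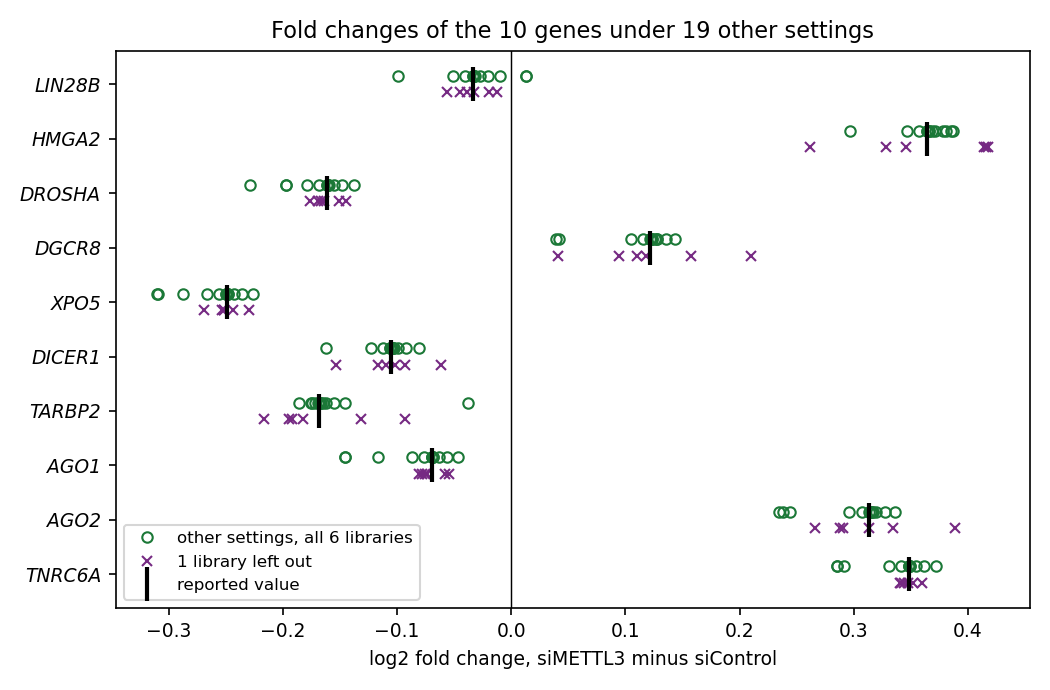
Log2 fold changes (horizontal axis, siMETTL3 minus siControl) of the 10 genes in the reported fit (black bar), under 13 other settings with all 6 libraries (circles) and with 1 library left out (6 crosses). LIN28B stays between -0.10 and 0.013, TNRC6A between 0.29 and 0.37, and DGCR8 spreads from 0.039 to 0.21.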

How the data were processed

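Each library has 1 deposited table of unnormalised counts. Counting was done by the authors with featureCounts 1.5.3, per the file headers, over whole gene spans of a GENCODE release 33 protein-coding annotation, so introns are included, a read over several genes counts for each, and no strand option was set. Of the 19923 genes, 33.1% overlap another. The submitters' processing notes also list FastQC 0.11.5, Trimmomatic 0.36, HISAT2 2.1.0 and Subread 1.5.3. Coordinates are those of the tables (GRCh38). No row was blank or a total.

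Genes were filtered with filterByExpr (15311 kept), scaled by TMM and tested with edgeR 4.0.16 in R 4.3.3 (robust glmQLFit and glmQLFTest, 3 against 3 libraries, no covariate, Benjamini-Hochberg over all tested genes, threshold 0.05). An SE is the absolute log2 fold change over the square root of F, and 95% intervals follow from it. Libraries of a group differed by more than counting noise (chi-square per degree of freedom 3.05 to 16.1). On simulated siMETTL3 against siControl data (5 draws, 200 of 15180 to 15211 genes changed, at 20 CPM or more), edgeR called 24.2% of 1.2-fold, 97.6% of 1.5-fold and 99.4% of 2-fold changes, and 7.60% of its calls were false, above the nominal share.

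The 10 genes and the gene lists were chosen with earlier results of these data known. Named beside the 10 genes and METTL3 were 15 related genes whatever their result, per list up to 4 called genes, taken by FDR, and the 3 genes most like LIN28B. A result that this rule would name is not reported here. Alternatives were other scalings and filters, DESeq2 1.42.0, limma-voom (limma 3.58.1), a block for replicate number, a fit without the robust option, leaving out each library, offsets for span length or for GC content and transcript length, and genes without overlaps (in which the 10 genes and METTL3 were kept). Sequences came from RefSeq (GRCh38.p14) and GENCODE release 44; all 10 genes had a canonical transcript there.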

Additional observations from a re-analysis of the deposited data

How the results depend on the processing

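With 19 other settings, METTL3, TNRC6A, AGO2 and XPO5 kept their direction and their calls in each. The fit to genes without overlaps kept XPO5, DGCR8 and METTL3 in by name although their spans overlap other genes, so it is no check on those. The number of the 10 genes called higher was 2 in each setting but 1: it went from 2 to 3 across the fits that left out 1 library, the 3 being without siControl replicate 1. The number called lower went from 1 to 3 across those fits (3 without siControl replicate 1, and 1 without siControl replicate 2 or without siMETTL3 replicate 1, 2 or 3). It was 1 with scaling by total counts, 3 with the span length offset, and 3 with the GC content and transcript length offset, both without and with the replicate block. Over all genes, the fits that left out 1 library called 2091 to 3178 genes higher and 2119 to 3216 lower. Genes that overlap no other gene, with those named above kept in, gave 1854 higher and 1900 lower of 9520 tested (39.4%), fewer because fewer were tested. DESeq2 called 2726 higher and 2745 lower.

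Directions of genes near 0 turned in a few settings, with no call in any, and the cause was not tested. LIN28B was at 0.013 with the GC content and transcript length offset, and also at 0.013 with the block added. With 1 library left out, AGO3 ran from -0.061 to 0.0098, AGO4 from -0.029 to 0.12, TUT4 from -0.015 to 0.072 and TUT7 from -0.040 to 0.038. AGO3 was at 0.0098 without siControl replicate 1. AGO4 was at -0.029 without siControl replicate 3, -0.028 without siMETTL3 replicate 1, -0.00064 with the span length offset, -0.013 with the GC offset and -0.0070 with the block added. TUT4 was at -0.015 without siControl replicate 2 and -0.038 with the span length offset. TUT7 was at -0.0025 with no filter, -0.036 without siControl replicate 1, -0.040 without siMETTL3 replicate 2, -0.049 with the span length offset and -0.013 on genes without overlaps. MED4 was at 0.083 with the GC offset and at 0.083 with the block added.

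Deviations of same-numbered libraries from the group means correlated weakly, at 0.040, 0.049 and 0.067. Differently numbered libraries of the opposite groups all lay lower, from -0.064 to 0.026. Whether the replicate numbers mark pairs was not tested. With the replicate block, 3047 genes were higher and 3119 lower, against 2849 and 2937 without it. With it, 2 of the 10 genes were called in each direction. Changes near 1.2-fold, the size of most seen here, were recovered in 24.2% of simulated cases. That simulation changed only 200 genes, whereas 37.8% of all tested genes were called here. The FDR cut depends on that share, so the 24.2% cannot be carried over to the test used here. How often the test misses such changes in these data was not tested. The 95% interval of each gene gives the sizes that its data leave possible.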
